A study of Mus musculus with 16 samples.

Results

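The genes described here encode the enzymes of de novo ceramide synthesis in mouse liver, and they were chosen by name: Sptlc1, Sptlc2 and Sptlc3, Kdsr, Cers2, Cers4, Cers5 and Cers6, and Degs1 and Degs2. These are 10 of the 50559 gene symbols in the deposited expression table, and all 10 passed the filter on low counts that left 18335 genes for testing. RNA was sequenced from the livers of 16 male C57BL/6J mice in 4 groups of 4. Mice entered the diets at 6 weeks of age and stayed on them for 10 weeks. The LFD group, which the sample labels call chow, ate a low-fat diet, and the other groups ate a 60% HFD. Every mouse received an siRNA every 2 weeks and an oral gavage for the last 4 weeks. LFD and HFD mice received luciferase control siRNA (10 mg/kg) and methylcellulose. HFD + siRNA mice received siRNA against ketohexokinase (KHK, 20 mg/kg), the enzyme that phosphorylates fructose, with methylcellulose. HFD + Inhib mice received the control siRNA with the KHK inhibitor PF-06835919 (15 mg/kg, 2 doses a day). The siRNA acted on the liver, whereas the inhibitor was systemic, so the treatments differ in the tissues they reach as well as in mechanism. Mice were given saline or insulin shortly before the tissue was taken, and the labels do not say which mouse received which.

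Ceramide is built at the endoplasmic reticulum in a short chain of reactions. Serine palmitoyltransferase (SPT) joins serine to a fatty acyl-CoA, KDSR reduces the product, ceramide synthases (CERS) add a second acyl chain whose length differs between isozymes, and dihydroceramide desaturases (DEGS) introduce the double bond that makes ceramide. Ceramides accumulate in fatty liver and have been studied for their effects on insulin signalling.

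Libraries held from 24317111 to 35820234 counts, with a median of 29570114. Levels below are normalized CPM, the counts scaled to a common library size. Changes are log2 fold changes with standard error (SE), tested by edgeR's quasi-likelihood method with Benjamini-Hochberg adjustment of p. A gene passed the test when its adjusted p was under 0.05. The p-values measure the spread between these mice within a single collection. All comparisons against a group share that group's libraries.

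Khk itself was measured first, since its level checks the labels. Khk stood at 214, 233, 349 and 269 CPM in LFD and at 251, 322, 233 and 251 CPM in HFD. In HFD + siRNA it stood at 11.8, 9.14, 18.1 and 11.5 CPM, and in HFD + Inhib at 112, 152, 94.6 and 120 CPM. Khk was thus low in all 4 libraries labelled siRNA, with no overlap with any other group (log2 fold change against HFD -4.38, SE 0.227, adjusted p = 1.88e-08). It was also lower in HFD + Inhib than in HFD (-1.14, SE 0.198, adjusted p = 7.52e-04).

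The liver identity of the libraries and the other cells they may hold were checked with marker lists. The 6 hepatocyte markers summed to 78800 ± 7900 CPM in LFD and 67600 ± 6750 CPM in HFD (SD, n = 4). With siRNA the sum was 74000 ± 4820 CPM, and with the inhibitor it was 40900 ± 1340 CPM. Albumin (Alb), the most abundant of them, stood between 27701 and 31981 CPM in HFD + Inhib and between 42757 and 54190 CPM in HFD. The 5 adipocyte markers summed to 9.74 ± 3.20 CPM in HFD and 103 ± 35.9 CPM in HFD + Inhib (SD, n = 4). That rise came from Fabp4 and Cfd, while in HFD + Inhib the fat cell hormones Adipoq and Lep were at most 0.10 CPM and at 0, and Plin1 was at most 0.04 CPM. Among the other lists, the 8 macrophage markers summed to 254 ± 22.9 CPM in HFD and 196 ± 37.7 CPM in HFD + Inhib, with 263 ± 51.2 CPM in LFD and 303 ± 37.7 CPM after siRNA, and Clec4f was the most abundant. The 7 stellate cell markers, led by Reln, summed to 364 ± 22.7 CPM in LFD, 457 ± 39.7 CPM in HFD, 490 ± 11.5 CPM after siRNA and 364 ± 27.2 CPM after the inhibitor, and HFD lay above both LFD and HFD + Inhib with no overlap between libraries. Reln itself averaged 207.7 CPM in HFD, against 159.8 CPM in LFD (adjusted p = 0.0167) and 131.7 CPM in HFD + Inhib (adjusted p = 2.51e-04). No other stellate marker passed in these comparisons. The median log2 fold change of the list was 0.18 in HFD against LFD and 0.0027 in HFD + Inhib against HFD. Against LFD, HFD + Inhib had Rgs5 higher and Reln lower, so the sums mainly follow Reln and not the list as a whole. The 6 lymphocyte markers, led by Ptprc, summed to 18.1 ± 2.05 CPM in HFD, 12.8 ± 3.44 CPM in LFD, 12.1 ± 0.727 CPM after siRNA and 12.5 ± 2.32 CPM after the inhibitor. Ptprc averaged 14.95 CPM in HFD and 10.13 CPM in LFD (adjusted p = 0.0395), and no other marker of this list passed there. Ms4a1 and Nkg7 were lower in HFD + Inhib than in HFD, at means of 0.14 and 0.17 CPM against 0.69 and 0.65 CPM. Cd79a and Ms4a1 were lower in HFD + Inhib than in LFD. The sum therefore mainly follows Ptprc. The 6 endothelial markers, led by Stab2, summed to 341 ± 26.9 CPM in LFD, 295 ± 18.6 CPM in HFD, 334 ± 35.8 CPM after siRNA and 287 ± 9.21 CPM after the inhibitor, and every HFD + Inhib library lay below every LFD library. Of these markers, Stab2, Kdr and Clec4g were lower in HFD + Inhib than in LFD (adjusted p = 0.0168, 0.0449 and 0.0276), and Lyve1 was 1.82-fold higher in HFD + Inhib than in HFD (adjusted p = 0.031) and 1.70-fold higher than in LFD (adjusted p = 0.0321). None of the markers in these 4 lists was at 0 in every library. In bulk liver, fewer cells of a type and less RNA per cell cannot be told apart, and the part of these shifts in the results below was not tested. LFD replicate 3 and HFD + Inhib replicate 4 stood apart in the bile duct keratin Krt19, at 14.2 and 8.81 CPM, where the other 14 libraries were at most 1.81 CPM.

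Sptlc3 passed the filter on low counts only through the HFD + Inhib libraries, where it was high, so it is described by its counts and left out of the numbers of genes that passed. Under the HFD, 4 of the other 9 genes rose and none fell. Only Cers6 passed once the trend on GC content and transcript length, described with Kdsr, was removed, and only Kdsr and Cers6 when the LFD and HFD libraries were fitted alone. Across all tested genes 18.4% passed the same test, 9.58% upward and 8.8% downward. The median log2 fold change of the 9 genes was 0.19 against -0.011 for all genes. HFD + siRNA differed from HFD at 2 of the 9, with Degs1 higher and Kdsr lower, where 11.7% of all genes passed, 5.2% upward and 6.55% downward. The medians there were -0.10 and 0.022. With the GC and length trend removed only Degs1 passed there, and with the HFD and HFD + siRNA libraries fitted alone only Kdsr. HFD + Inhib differed from HFD at 1 of the 9, Kdsr, which was higher, where 18.2% of all genes passed, 9.8% upward and 8.42% downward. The medians were -0.064 and -0.0044. Between the treatments, 2 of the 9 differed where 33.8% of all genes passed, 17.3% upward and 16.6% downward in HFD + Inhib. Kdsr was higher and Degs1 lower in HFD + Inhib, and of these only Kdsr passed with the libraries of the 2 treatments fitted alone. Against LFD, 2 of the 9 were higher in HFD + siRNA (8.63% of all genes passed, 4.75% upward and 3.88% downward). In HFD + Inhib, 3 of the 9 were higher (36.9% of all genes passed, 18.8% upward and 18.2% downward). Of these, Kdsr and Cers6 also passed with the LFD and HFD + Inhib libraries fitted alone. The plot of levels by library shows each of these genes.

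**Figure D1:**
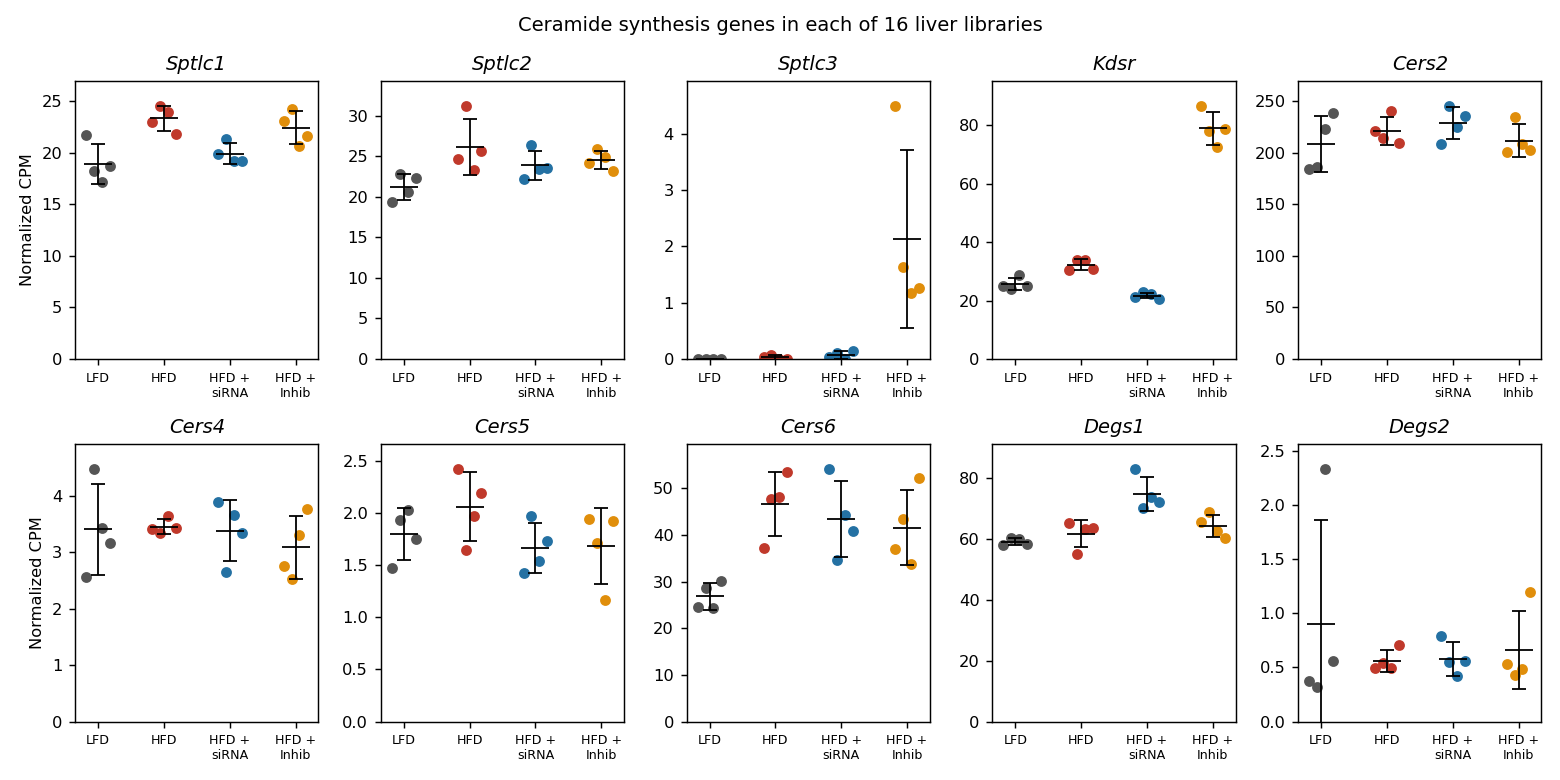
Normalized CPM (vertical axes, from 0) of the 10 ceramide synthesis genes in the 4 groups, with 1 point per library and the mean with SD in black (n = 4). Kdsr and Sptlc3 stand apart in HFD + Inhib, and Cers6 is lower in LFD than in every HFD library.

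Sptlc3 and Kdsr were the members that stood apart with the inhibitor, so the 250 bases before their annotated starts are shown. Both are RefSeq sequences on build GRCm38.p6, given 5′ to 3′ on the gene's own strand, Sptlc3 from the plus strand (chr2:139493663-139493912) and Kdsr from the minus strand (chr1:106759743-106759992). Capitals mark matches to the GC box, GGGCGG, on either strand.
Sptlc3: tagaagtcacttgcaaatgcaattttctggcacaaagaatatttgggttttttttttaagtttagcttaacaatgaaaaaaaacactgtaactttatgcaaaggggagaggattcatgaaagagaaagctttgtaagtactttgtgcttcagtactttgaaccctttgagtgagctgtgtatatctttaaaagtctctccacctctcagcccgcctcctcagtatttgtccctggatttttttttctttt
Kdsr: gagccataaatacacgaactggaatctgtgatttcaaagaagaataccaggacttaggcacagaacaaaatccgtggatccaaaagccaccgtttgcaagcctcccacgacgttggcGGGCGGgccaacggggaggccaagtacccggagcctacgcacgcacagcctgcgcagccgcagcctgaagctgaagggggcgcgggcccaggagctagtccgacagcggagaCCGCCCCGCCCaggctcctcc
Kdsr held 3 matches to the GC box, of which a pair shared a base, and Sptlc3 held none. The GC box was in 7 of the 10 members and in 32.7% of the 32851 RefSeq windows of this length. G and C made up 35.6% of the Sptlc3 window, a value above only 5.41% of the windows, and 61.6% of the Kdsr window. AGGTCA, a motif bound by nuclear receptors (14% of windows), its spaced repeat AGGTCANAGGTCA (0.0335%), which contains it, and the E-box CACGTG (6.02%) were searched on both strands and matched in neither window. CACGTG was present upstream of Cers2, Cers6 and Degs1, and AGGTCA upstream of Cers2. Only exact matches within these 250 bases were searched. Sites with other letters or further away were not looked for, so the absence of a match decides nothing on regulation.

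SPT works as SPTLC1 paired with either SPTLC2 or SPTLC3. Sptlc1, the shared subunit, stood at 21.7, 18.2, 17.1 and 18.7 CPM in LFD and at 23.0, 24.5, 23.97 and 21.8 CPM in HFD. The lowest HFD library lay just above the highest LFD library, so the groups did not overlap (0.30, SE 0.084, adjusted p = 0.0213). The call was lost without LFD replicate 3 (adjusted p = 0.0775), HFD replicate 2 (0.0529) or HFD replicate 3 (0.0594), with only the compared groups fitted (0.0658), and with correction for GC content and length (0.22, adjusted p = 0.0815). In HFD + siRNA, Sptlc1 was at 19.9, 21.3, 19.2 and 19.2 CPM, below every HFD library, but the difference did not pass the test (-0.23, adjusted p = 0.0874). In HFD + Inhib it was at 23.1, 24.2, 20.7 and 21.6 CPM, with a difference from HFD of -0.06 (95% interval -0.24 to 0.12). Against LFD this was 0.24 higher (adjusted p = 0.0326), and that call was lost without LFD replicate 2 (0.0772), 3 (0.114) or 4 (0.0662), without HFD + Inhib replicate 1 (0.0756) or 2 (0.101), with only the compared groups fitted (0.103), with no filter (0.0716), and with the GC and length correction (0.074, adjusted p = 0.535).

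Sptlc2, the subunit most often paired with SPTLC1, stood at 19.3, 22.8, 20.5 and 22.3 CPM in LFD and at 24.7, 31.2, 23.3 and 25.6 CPM in HFD. HFD replicate 2 was the highest of the 16 libraries, and the groups did not overlap (0.30, SE 0.0938, adjusted p = 0.0338). The call was lost without LFD replicate 1 (adjusted p = 0.0975) or 3 (0.0863), without HFD replicate 2 (0.111) or 4 (0.0602), with only the compared groups fitted (0.0855), with no filter (0.0633), and with the GC and length correction (0.24, adjusted p = 0.0727). In HFD + siRNA and HFD + Inhib, Sptlc2 lay between 22.2 and 26.4 CPM. Neither treatment differed from HFD past the threshold (-0.13, 95% interval -0.33 to 0.06 for siRNA, and -0.10, -0.29 to 0.10 for the inhibitor).

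Sptlc3, the alternative subunit that lets SPT use a wider range of acyl-CoAs, was almost absent outside HFD + Inhib. It had 0 counts in all 4 LFD libraries, 1, 3, 0 and 0 counts in HFD, and 1, 3, 0 and 5 counts in HFD + siRNA. In HFD + Inhib it had 127, 42, 36 and 42 counts, or 4.49, 1.63, 1.17 and 1.26 CPM. Every HFD + Inhib library lay above every other library, and replicate 1 was far above the other three. From summed counts, Sptlc3 in HFD + Inhib was at least 80.5-fold higher than in LFD, taking 3 counts over the group as the floor. It was 63.2-fold higher than in HFD (exact binomial counting interval 24.4 to 234) and 28.3-fold higher than in HFD + siRNA (14.7 to 62.6), intervals that cover counting error only. No p is given, since the gene entered the fit through this group alone. Without HFD + Inhib replicate 1 the summed counts gave at least 51.4-fold over LFD, 40.4-fold over HFD and 18.1-fold over HFD + siRNA. Of the 4 counts in HFD, 3 were in replicate 2, and without that library 1 count was left and the ratio of 171 had a counting interval of 30.5 to 6799. Without HFD + siRNA replicate 4, which held 5 of the 9 counts of its group, the ratio was 45.8 (counting interval 17.7 to 169). These libraries were left out after their values were seen. LFD, HFD and HFD + siRNA held 0, 4 and 9 counts in all, too few at this depth to settle whether they differed. Per kilobase of transcript, Sptlc3 in HFD + Inhib reached 0.235 ± 0.177 of the Sptlc2 level (SD, n = 4), from 0.126 to 0.499 in single libraries.

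Kdsr, the reductase that takes up the product of SPT, changed in the most comparisons. It stood at 25.1, 23.9, 28.8 and 25.1 CPM in LFD and at 30.6, 33.8, 34.0 and 30.9 CPM in HFD. In HFD + siRNA it stood at 21.1, 22.8, 22.3 and 20.7 CPM, and in HFD + Inhib at 86.5, 78.2, 72.7 and 78.7 CPM. No group overlapped any other, in the order HFD + siRNA, LFD, HFD and HFD + Inhib. The step from HFD to HFD + Inhib was 2.44-fold (1.29, SE 0.0794, adjusted p = 2.16e-08), and from HFD + siRNA to HFD + Inhib it was 3.64-fold (1.86, SE 0.0809, adjusted p = 3.81e-10). Kdsr was higher in HFD than in LFD (0.33, SE 0.079, adjusted p = 0.00992) and lower in HFD + siRNA than in HFD (-0.57, SE 0.0793, adjusted p = 5.26e-04). The lowest neighbours in the order, HFD + siRNA and LFD, did not differ past the threshold (-0.24, adjusted p = 0.0683), though they did without LFD replicate 2 (-0.29, adjusted p = 0.0493) and in DESeq2 (-0.26, adjusted p = 0.0345).

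The smaller Kdsr steps moved when the trend on GC content and transcript length was removed, both together, in a fit over the 15858 genes with both values. The annotated Kdsr transcripts held 41.7% G and C against a median of 50.5% for tested genes, and fold changes followed GC content across 8232 genes with a Spearman correlation of -0.5 for HFD against LFD, 0.47 for HFD + siRNA against HFD and -0.27 for HFD + Inhib against HFD, as a description over genes of the same libraries. When each library's trend with GC content and length was removed, the HFD step of Kdsr was 0.06 (adjusted p = 0.765) and the siRNA step -0.27 (adjusted p = 0.135), so neither call was kept. The inhibitor step was 1.23 and stayed past the threshold. Whether the trend came from library preparation or from the livers was not tested.

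**Figure D2:**
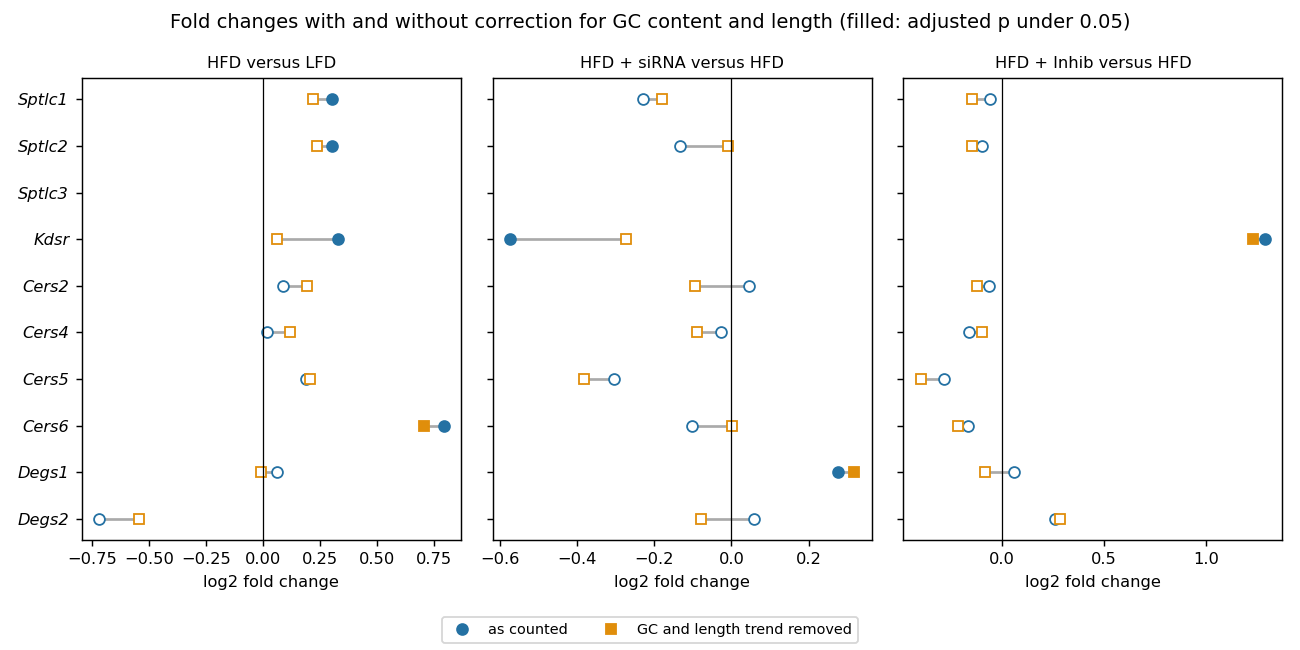
log2 fold change (horizontal axes) of 9 of the 10 genes in 3 comparisons, as counted (circles) and with each library's trend on GC content and transcript length removed (squares), filled where adjusted p was under 0.05. The axes differ in range, and Kdsr moves from 0.33 to 0.06 in HFD versus LFD, and little in HFD + Inhib versus HFD. Sptlc3 is left off because it had few or no counts outside HFD + Inhib.

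Among the ceramide synthases, Cers6, which favours long-chain acyl-CoAs such as palmitoyl-CoA, rose with the HFD. It stood at 24.7, 28.6, 24.3 and 30.1 CPM in LFD and at 37.1, 47.7, 48.1 and 53.4 CPM in HFD. It stood at 54.1, 34.6, 44.3 and 40.7 CPM in HFD + siRNA and at 37.0, 43.4, 33.7 and 52.1 CPM in HFD + Inhib. All 12 HFD-fed libraries lay above all 4 LFD libraries, while the HFD-fed groups overlapped one another. Against LFD, Cers6 was 1.73-fold higher in HFD (0.79, SE 0.154, adjusted p = 0.00288), 1.61-fold in HFD + siRNA (0.69, SE 0.153, adjusted p = 0.0107) and 1.55-fold in HFD + Inhib (0.63, SE 0.153, adjusted p = 0.00462). These 3 calls were kept in every alternative fit and with each library left out. The differences from HFD did not pass the test (-0.10, 95% interval -0.42 to 0.22 for siRNA, and -0.16, -0.49 to 0.16 for the inhibitor).

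Cers2, which makes very-long-chain ceramides and is the main ceramide synthase of liver, was the most abundant member. Its group means were 208 CPM in LFD, 221 CPM in HFD, 229 CPM with siRNA and 212 CPM with the inhibitor, and single libraries ran from 185 to 245 CPM. No comparison passed the test, and the groups overlapped. The 95% interval of its HFD + Inhib difference from HFD was -0.27 to 0.14. Cers4 ran from 2.53 to 4.48 CPM and Cers5 from 1.17 to 2.42 CPM over the 16 libraries, with no call in any comparison. For Cers5 the interval against HFD was -0.71 to 0.11 in HFD + siRNA and -0.69 to 0.13 in HFD + Inhib. Annotated exons of Cers2 overlap those of opposite-strand genes over 144 and 75 bases and those of Cers4 over 886 and 214 bases, and the strand setting of the counting is not given in the sources used here.

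Per kilobase of the median annotated transcript, Cers2 stood at 249 ± 32.3 CPM per kilobase in LFD, Cers6 at 6.47 ± 0.692, Cers5 at 2.03 ± 0.281 and Cers4 at 0.691 ± 0.163 (SD, n = 4). The order was the same with the longest transcript. The ratio of Cers6 to Cers2 per kilobase was 0.0263 ± 0.00372 in LFD and 0.0426 ± 0.00739 in HFD, and with the longest transcript 0.0411 and 0.0666. The choice of length multiplies the ratio by the same factor in every group, so it bears on the size of the ratio and not on the comparison of groups.

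**Figure D3:**
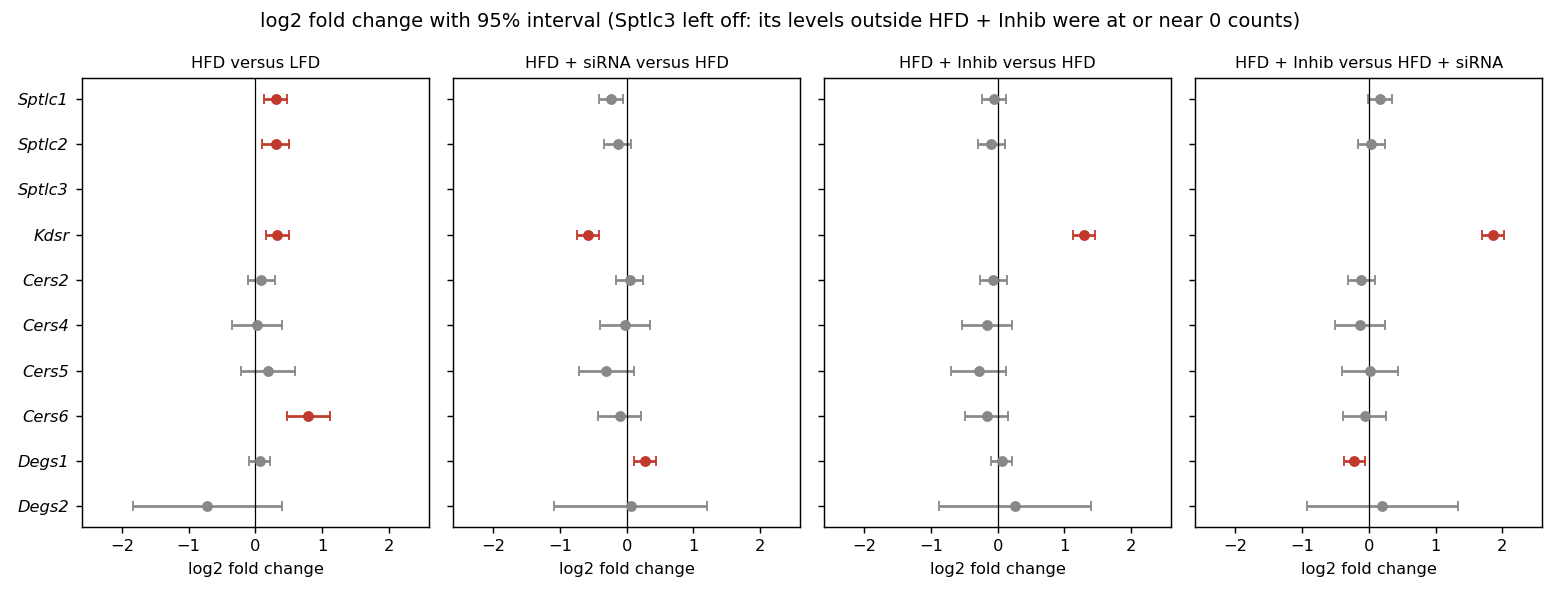
log2 fold change with its 95% interval (horizontal axes) of 9 of the 10 genes in 4 comparisons, red where adjusted p was under 0.05 and grey otherwise. Of these 9, Kdsr has the largest inhibitor step at 1.29, Cers6 the largest HFD step past the threshold at 0.79, and Degs2 the widest intervals. Sptlc3 is left off because it had few or no counts outside HFD + Inhib.

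The last step is carried out in most tissues by DEGS1. Degs1 stood at 57.9, 60.1, 59.9 and 58.1 CPM in LFD and at 65.0, 54.9, 63.0 and 63.4 CPM in HFD. It stood at 82.8, 70.1, 73.5 and 71.9 CPM in HFD + siRNA and at 65.5, 68.6, 62.5 and 60.03 CPM in HFD + Inhib. All 4 HFD + siRNA libraries lay above the other 12. Degs1 was higher in HFD + siRNA than in LFD (0.34, SE 0.0757, adjusted p = 0.011), a call kept with each library left out. It was also higher than in HFD (0.28, SE 0.0756, adjusted p = 0.0268), and it was lower in HFD + Inhib than in HFD + siRNA (-0.22, SE 0.0756, adjusted p = 0.0356). The call against HFD was lost without HFD replicate 2 (adjusted p = 0.075), 3 (0.0584) or 4 (0.0626), or HFD + siRNA replicate 1 (0.109), 3 (0.0629) or 4 (0.0629), with only the compared groups fitted (0.055) and with no filter (0.0848). The call between treatments was lost without HFD + siRNA replicate 1 (0.155), 3 (0.0714) or 4 (0.0634), or HFD + Inhib replicate 1 (0.0664), 3 (0.0789) or 4 (0.111), with only the compared groups fitted (0.0695) and with no filter (0.128), while the GC and length correction gave -0.40 and kept the call.

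DEGS2, which can also hydroxylate dihydroceramide to phytoceramide, had little mRNA in these livers. Degs2 stood at 0.377, 0.322, 2.33 and 0.56 CPM in LFD, at 0.497, 0.539, 0.493 and 0.704 in HFD, at 0.791, 0.546, 0.419 and 0.557 in HFD + siRNA and at 0.53, 0.427, 0.486 and 1.20 in HFD + Inhib. No comparison passed the test. The highest libraries, LFD replicate 3 and HFD + Inhib replicate 4, were those with 14.2 and 8.81 CPM of Krt19, and they also had the most of the bile duct genes Krt7 (2.09 and 1.74 CPM) and Epcam (2.90 and 3.06 CPM). The whole list of 6 bile duct markers, in which Spp1 was the most abundant, summed to 46.2 and 43.2 CPM in these libraries, and HFD + Inhib replicate 3 (47.98 CPM) and HFD replicate 1 (44.97 CPM) were as high. The part of bile duct RNA in these Degs2 values was not tested. Without LFD replicate 3 the HFD difference from LFD changed from -0.72 to 0.40 (adjusted p = 0.559), and without HFD + Inhib replicate 4 the inhibitor difference from HFD changed from 0.26 to -0.21 (adjusted p = 0.859). Degs2 exons also overlap Evl on the opposite strand over 278 bases.

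**Figure D4:**
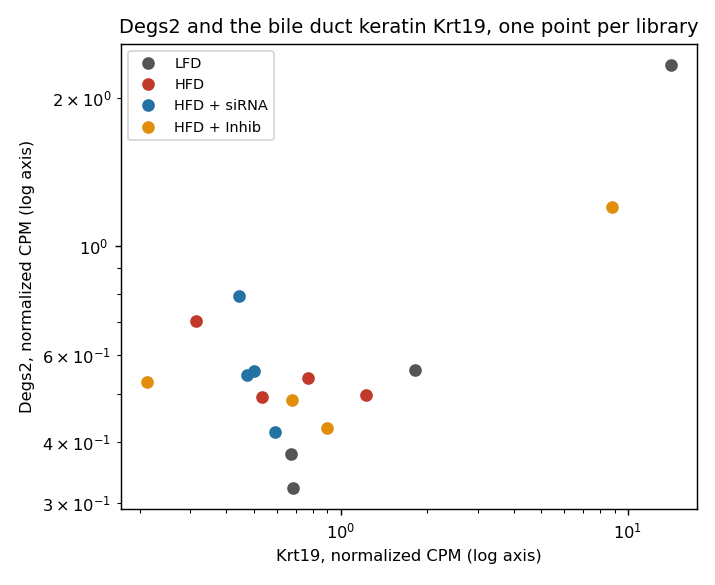
Degs2 (vertical log axis) against the bile duct keratin Krt19 (horizontal log axis), both in normalized CPM, with 1 point per library coloured by group. LFD replicate 3 (14.2 CPM Krt19, 2.33 CPM Degs2) and HFD + Inhib replicate 4 (8.81 and 1.20 CPM) lie apart from the other 14 libraries.

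Genes that act around ceramide were counted from lists of SPT small subunits and regulators, sphingomyelin synthesis, sphingomyelinases, ceramidases, sphingosine phosphate metabolism, glycosylceramide metabolism and acyl-CoA elongases, of which 36 of 43 were tested. In HFD against LFD, 8 rose and 3 fell, 30.6% against 18.4% of all genes, with a median of 0.12. In HFD + siRNA against HFD, 2 rose and 8 fell, 27.8% against 11.7%, with a median of -0.24. In HFD + Inhib against HFD, 4 rose and 3 fell, 19.4% against 18.2% and so near the background, with a median of 0.095. Between the treatments, 14 were higher and 6 lower in HFD + Inhib, 55.6% against 33.8%, with a median of 0.31. With the GC and length correction, chosen for these lists after the data were seen and covering 35 of them, the numbers higher and lower were 6 and 2, 2 and 6, 4 and 3, and 11 and 5. These are 22.9%, 22.9%, 20% and 45.7% of the 35, where 15.9%, 10.2%, 21.4% and 29.9% of all genes passed in the same fit. As counted, the 6 tested elongases held 3 of the rises and 1 of the falls in HFD against LFD. In HFD + siRNA against HFD they held 2 and 3. In HFD + Inhib they held 2 and 0 against HFD, and 4 and 1 against HFD + siRNA. In HFD + siRNA against HFD, 83.3% of the elongases passed, with 40% of sphingomyelin synthesis, 28.6% of glycosylceramide and 16.7% of sphingosine phosphate genes. None passed there in the other lists. The ceramide synthases Cers1 and Cers3 had too few counts to test.

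Of the genes that consume ceramide, Ugcg, which makes glucosylceramide, fell in HFD + siRNA. It stood at 31.6, 22.5, 33.0 and 30.5 CPM in HFD and at 17.0, 17.8, 17.8 and 15.3 CPM in HFD + siRNA, without overlap (-0.79, SE 0.125, adjusted p = 0.00144). Cert1, which carries ceramide to the Golgi for sphingomyelin synthesis, fell there as well (-0.59, adjusted p = 0.00103), as did Samd8 (-0.48, adjusted p = 0.00996). In HFD + Inhib neither Ugcg (0.11, adjusted p = 0.601) nor Cert1 (0.23, adjusted p = 0.0835) passed the test against HFD. Gba2, a glucosylceramidase that releases ceramide, fell in HFD + Inhib. It stood at 14.0, 13.4, 8.99 and 13.7 CPM in HFD and at 5.55, 5.87, 5.25 and 6.93 CPM in HFD + Inhib (-1.08, SE 0.133, adjusted p = 3.3e-05). The ceramidases Acer2 (0.45, adjusted p = 0.0357) and Acer3 (0.48, adjusted p = 0.0354) were higher there.

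The elongases lengthen acyl-CoAs, some of which SPT and CERS use. Elovl6, which lengthens palmitoyl-CoA, had a mean of 149 CPM in HFD and 47.2 CPM in HFD + siRNA (-1.66, SE 0.246, adjusted p = 9.77e-04). Elovl1 went the other way, with means of 27.2 CPM in HFD and 38.4 CPM in HFD + siRNA (0.50, adjusted p = 0.00877). The Elovl1 call was kept with the GC and length correction (0.36, adjusted p = 0.0296). Elovl2 was lower in HFD + siRNA than in HFD (-0.50, adjusted p = 0.0244), and its call was lost with the correction (-0.32, adjusted p = 0.113). Elovl5, which lengthens polyunsaturated acyl-CoAs, averaged 386 CPM in LFD and 744 CPM in HFD, against 380 CPM with siRNA and 1275 CPM with the inhibitor. It rose with the HFD (0.95, adjusted p = 0.00187), was lower in HFD + siRNA than in HFD (-0.97, adjusted p = 0.00264) and was higher in HFD + Inhib than in HFD (0.78, adjusted p = 0.0045). Elovl3 fell with the HFD (-2.18, adjusted p = 0.00608) and was higher than in HFD with siRNA (1.97, adjusted p = 0.0144) and with the inhibitor (1.44, adjusted p = 0.0416), the last of which was lost with the GC and length correction (1.34, adjusted p = 0.0505). Of the 4 SPT small subunits and regulators tested, none passed in edgeR in these 3 comparisons as counted, with Ormdl1 in HFD against LFD (0.0247) and Ormdl2 in HFD + siRNA against HFD (0.0495) under an unadjusted p of 0.05, and Ormdl3 passed in HFD + Inhib against HFD with that correction (0.29, adjusted p = 0.0449), as it did against LFD (0.45, adjusted p = 0.00249). Sptssa, a small subunit of SPT, was higher in HFD + Inhib than in HFD + siRNA (0.54, adjusted p = 0.0158) and than in LFD (0.50, adjusted p = 0.0218), and neither call was kept with the correction (0.054, adjusted p = 0.84, and -0.0069, adjusted p = 0.982). With it, HFD + Inhib differed from HFD + siRNA at Ormdl1 (-0.40, adjusted p = 0.0164), Ormdl2 (-0.39, adjusted p = 0.0127) and Ormdl3 (0.31, adjusted p = 0.025), none of which passed as counted.

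**Figure D5:**
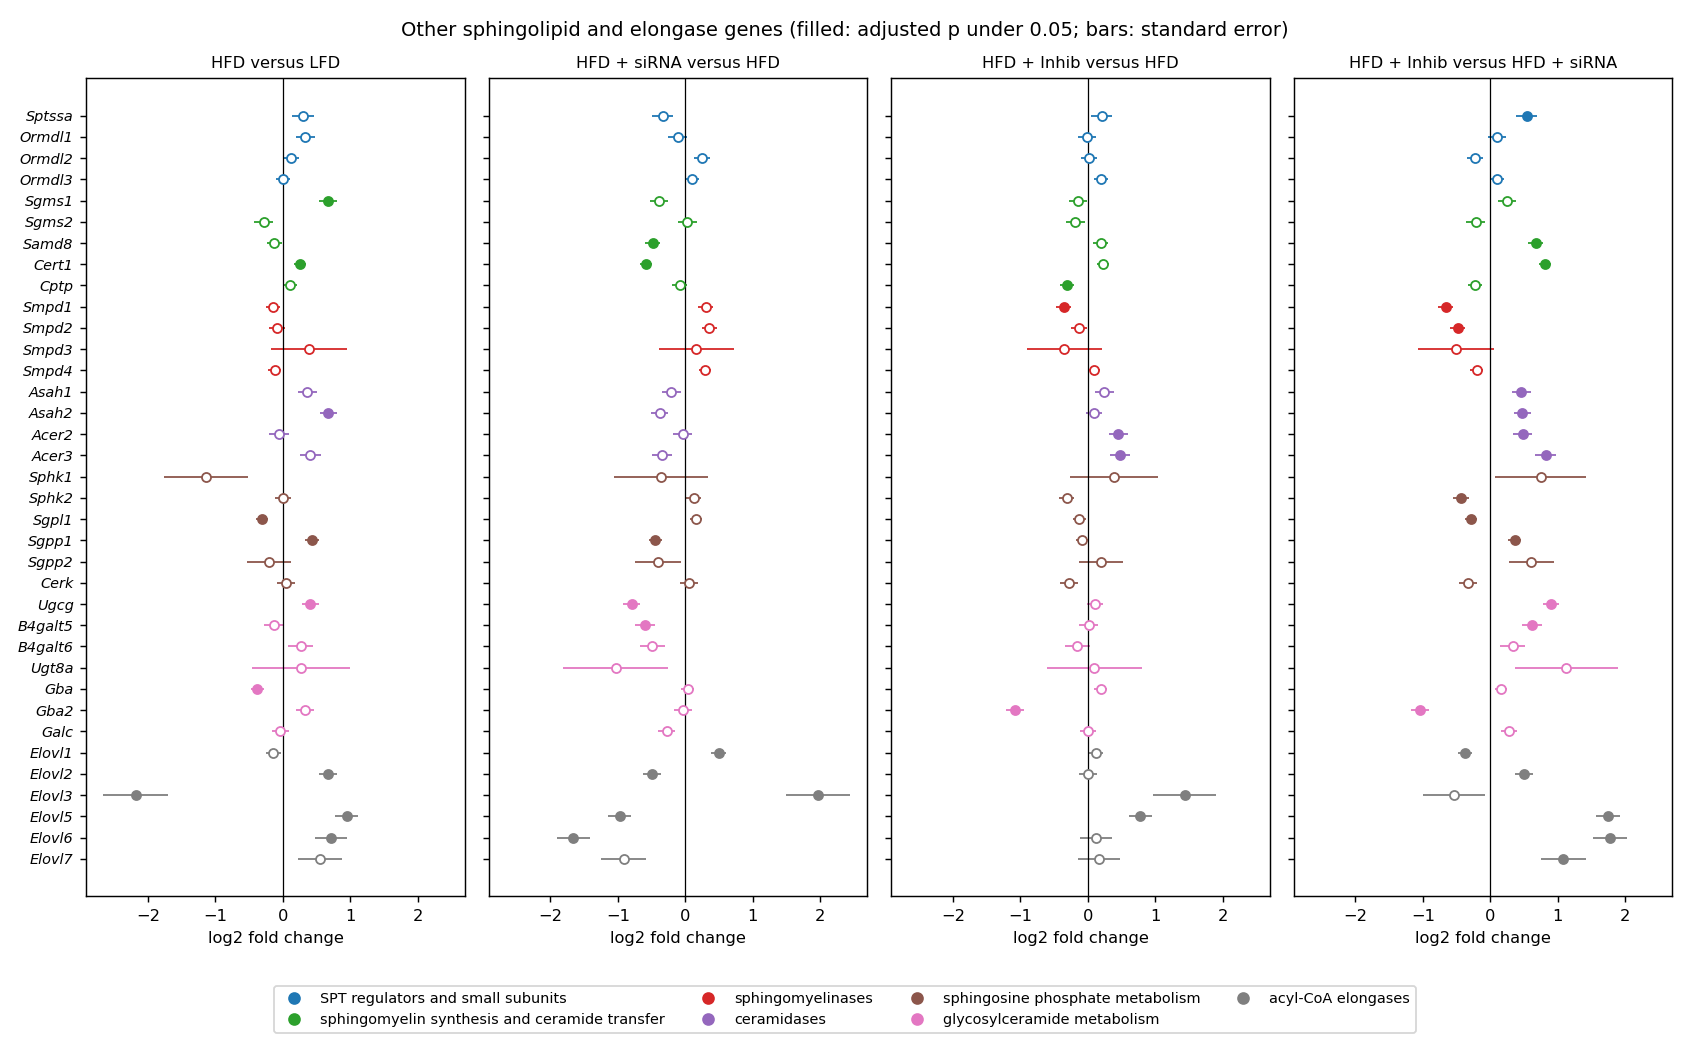
log2 fold change (horizontal axes, bars for standard error) of other sphingolipid and elongase genes in 4 comparisons, coloured by list and filled where adjusted p was under 0.05. Ugcg, Cert1 and Elovl6 lie below 0 in HFD + siRNA versus HFD, and Gba2 lies at -1.08 in HFD + Inhib versus HFD.

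Genes whose levels over the 16 libraries lay nearest to those of the 3 most variable members were found among 12402 genes by the root mean square difference of centred log2 CPM. Nearest to Sptlc3 were Acot1 (0.592), an acyl-CoA thioesterase with close paralogs, Cpt1b (0.624), a carnitine palmitoyltransferase, and Slc27a1 (0.646), a fatty acid transporter. Sptlc3 had few or no counts outside HFD + Inhib, so the search could only return genes high in that group. Nothing was concluded from these 3 genes. Acot1 stood at 458, 362, 236 and 369 CPM in HFD + Inhib and at most 17.8 CPM in HFD. Nearest to Kdsr were Alpl (0.166), alkaline phosphatase, 1300002E11Rik (0.19) and Rnf24 (0.191). Nearest to Cers6 were Stx2 (0.168), a syntaxin, Dglucy (0.173) and Maob (0.188), a monoamine oxidase.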

How the data were processed

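The authors deposited a single table of expected counts per gene symbol for 16 liver libraries. The submitters' processing notes name STAR, RSEM and the mouse build mm39, without versions, whereas the study's methods name an HTG EdgeSeq assay, so the exact library method is uncertain. Of the deposited expected counts, 15.1% were not whole, and all were rounded. Groups were taken from the sample labels.

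Counts were tested with edgeR 4.0.16 (R 4.3.3, limma 3.58.1) in 1 quasi-likelihood fit over all 16 libraries with TMM scaling. filterByExpr (minimum count 10, minimum total 15) kept 18335 genes, and p-values were Benjamini-Hochberg adjusted over them. The procedure was tested on simulated data. A prior count of 2 was used for log2 CPM levels, not for the fitted fold changes. DESeq2 1.42.0, other filters, GC content and length offsets (GENCODE M21 transcripts, 86.5% of tested genes matched), a replicate block and leaving out each library were alternatives. Lengths and RefSeq upstream sequences come from GRCm38, so no coordinates were joined to the counts. All 10 genes matched a RefSeq upstream sequence.

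The members and lists were chosen with earlier results of these data known. All members are named. From the lists, some genes past the threshold were described above and others were not. In HFD versus LFD, those left out include Sgms1 (0.67, adjusted p in edgeR 0.00372) and Asah2 (0.68, 0.00185). In HFD + siRNA versus HFD they include B4galt5 (-0.60, 0.0158) and Sgpp1 (-0.44, 0.00996). In HFD + Inhib versus HFD they include Smpd1 (-0.36, 0.0322) and Cptp (-0.31, 0.0497). The Ormdl genes were named though none passed as counted. Cert1 and Ugcg were given for HFD + Inhib after their values were seen. The 3 genes nearest to each of the 3 most variable members were named.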

Additional observations from a re-analysis of the deposited data

Results flagged for a closer look

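In groups of 4, the highest or lowest library was compared with the rest of its group by Dixon's gap criterion, which chance passes in about 1 of 20 groups. Of 39 member and group combinations, 3 passed, which is near the rate that chance gives. Sptlc3 stood at 4.49 CPM in HFD + Inhib replicate 1, far above the other libraries of that group. Degs2 stood at 2.33 CPM in LFD replicate 3 and at 1.2 CPM in HFD + Inhib replicate 4, each the highest of its group and each beside high Krt19.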

How the results depend on the processing

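Sptlc3 is left out of the numbers here, since it entered the test through HFD + Inhib alone. Of 54 fitted differences of the other 9 genes, 14 passed the test, and none of the 14 changed sign. Of these, 7 passed with each library left out and in every alternative fit. Of the 40 that did not pass, 20 changed sign in some fit. The cause of these changes was not tested, except where a setting removes a gene or raises the threshold.

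In HFD versus LFD, 2 genes passed when only the compared groups were fitted (13.4% of all genes), 1 with GC content and length offsets (15.9%), 1 with those offsets and the replicate block (16.6%), and 2 at an adjusted p under 0.01 (7.02%), and leaving out single libraries gave 2 to 4 (10.8% to 19.8%). In HFD + siRNA versus HFD, 1 passed with no filter (4.91%), with the compared groups only (15%), with the offsets (10.2%), with offsets and block (10.6%), and under 0.01 (3.76%), and leaving out single libraries gave 1 to 2 (5.89% to 10.6%). In HFD + Inhib versus HFD, Kdsr was 1 of 9 in every fit, also when every library needed at least 10 counts (21.2%). In HFD + Inhib versus HFD + siRNA, 1 rather than 2 passed with no filter (16.5%), with the compared groups only (34.1%) and under 0.01 (20.2%), and leaving out single libraries gave 1 to 2 (26.5% to 33.4%). In HFD + siRNA versus LFD, 0 passed under 0.01 in edgeR (3.09%), where 2 passed under 0.05.

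Replicate numbers were not taken to pair the samples in the main fit. Of 24 same-number correlations, 6 were over 0.1, from -0.132 to 0.336. The best match was the own number in 12 of 24, a count with no chance value computed, so it decides nothing on pairing. With the replicate block alone, 4, 2, 1, 2, 2 and 4 of the 9 genes passed (18%, 11.3%, 18.2%, 33.8%, 8.01% and 36.4% of all genes), Sptlc2 in HFD + Inhib versus LFD being the gene added (0.21, adjusted p = 0.0453).

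With the GC content and length offsets, and then with the block added, these differences, none past the threshold, changed sign. In HFD versus LFD, Degs1 was -0.0084 and -0.01. In HFD + siRNA versus HFD, Cers2 was -0.094 and -0.095, Cers6 0.00055 and 0.006, and Degs2 -0.078 and -0.068. In HFD + Inhib versus HFD, Degs1 was -0.081 and -0.078. In HFD + Inhib versus HFD + siRNA, Sptlc2 was -0.13 and -0.14, and Cers5 -0.014 and -0.021. In HFD + siRNA versus LFD, Cers4 was 0.027 and 0.0298. In HFD + Inhib versus LFD, Cers4 was 0.023 and 0.017, and Degs1 -0.0895 and -0.088.

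With single libraries left out, these ranges crossed 0. Cers4 ran from -0.084 to 0.18 in HFD versus LFD, -0.12 to 0.05 in HFD + siRNA versus HFD, -0.13 to 0.13 in HFD + siRNA versus LFD and -0.25 to 0.014 in HFD + Inhib versus LFD. Degs2 ran from -0.99 to 0.40, -0.14 to 0.17, -0.95 to 0.44 and -0.92 to 0.66 in the same comparisons, from -0.21 to 0.41 in HFD + Inhib versus HFD and from -0.26 to 0.40 in HFD + Inhib versus HFD + siRNA. Cers2 ran from -0.0085 to 0.089 in HFD + siRNA versus HFD and -0.0304 to 0.098 in HFD + Inhib versus LFD. Cers5 ran from -0.052 to 0.16 in HFD + Inhib versus HFD + siRNA and -0.17 to 0.047 in HFD + Inhib versus LFD. Cers6 ran from -0.19 to 0.072 in HFD + Inhib versus HFD + siRNA.

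Outside HFD + Inhib, Sptlc3 had at most 9 counts over a group, too few at this depth to settle whether those groups differed.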
